A study of Mus musculus with 35 samples.

Results

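The E protein genes Tcf3, Tcf4 and Tcf12 and the Id genes Id1, Id2, Id3 and Id4 were followed through chromatin maps of mouse pre-B cells with and without normal Ikaros function. Every peak whose deposited gene name was 1 of these 7 symbols was taken, which gave 1280 of the 1213505 peaks in all lists and 7 of the 23862 genes named in them. Tcf4 held 568 of the peaks, Tcf12 302, Id3 150, Id2 92, Tcf3 83, Id1 64 and Id4 21. The cells were stromal-adherent pre-B cell progenitors at passages 3 to 8, mapped by chromatin immunoprecipitation and sequencing (ChIP-seq). IKDN cells came from IKDN CD2 Cre mice, in which Cre driven from the CD2 promoter in lymphoid cells switches on a dominant-negative form of Ikaros, and WT cells came from WT mice. A peak list was used for 17 IKDN and 16 WT libraries of the 35 in the series, and the 2 inputs had none here. Each genotype and target had 1 library, so a difference between genotypes has no replicate check, carries no test, and cannot be told apart from a difference between the cultures.

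E proteins are helix-loop-helix transcription factors that bind the E-box, CANNTG, as dimers. Tcf3 encodes E2A, with its splice forms E12 and E47, Tcf4 encodes E2-2, and Tcf12 encodes HEB. Id proteins carry the dimerization domain but no DNA-binding region, so they hold E proteins off DNA. In B cell progenitors E2A works with EBF1 and PAX5 to set up the B lineage program, while Id2 and Id3 are the Id genes best known from lymphocytes. On GRCm38.p6, in RefSeq, Tcf3 spans chr10:80409541-80433976 and Tcf12 chr9:71844252-72111893, both on the minus strand. Id1 spans chr2:152736251-152737410, Id3 chr4:136143822-136145392 and Id4 chr13:48261116-48266028 on the plus strand, and Id2 chr12:25093799-25096092 on the minus strand.

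Both genotypes were mapped for 7 chromatin targets and 8 factors. The chromatin targets were H3K27ac (active enhancers and promoters), H3K4me1 and H3K4me2 (enhancers and promoter flanks), H3K4me3 (promoters), H3K36me3 (transcribed gene bodies), H3K27me3 (Polycomb-repressed chromatin) and RNA polymerase II (RNAPII). The RNAPII samples are titled RpIIS5, which names the S5 form and not total polymerase. The factors were E2A itself, its B lineage partners EBF1 and PAX5, the DNA-binding proteins ETS1, IRF4, Aiolos and TEAD1, and the Mediator subunit MED1. LHX2 and LMO2 were mapped in IKDN cells only and Ikaros in WT cells only. LMO2 is a bridging protein that binds DNA through E protein dimers, and Aiolos is a close relative of Ikaros.

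The lists held between 2802 peaks (IKDN Aiolos) and 86703 peaks (IKDN PAX5), and tag totals inferred from the steps of the scores ran from 10.7 M (M, mega; IKDN H3K4me3) to 37.5 M (IKDN H3K27me3). Inferred totals differed by more than 1.5 times for H3K4me3, with 10.7 M in IKDN and 29.6 M in WT cells, and for E2A, with 34.7 M in IKDN and 17.0 M in WT cells. The IKDN PAX5 list had no peak beyond 32.6 Mb of chromosome 9 and none on chromosome X. The WT E2A list had no peak beyond 157 Mb of chromosome 2 and none on chromosomes 3 to 9 or X. The WT ETS1 list had no peak on chromosome 2. Tcf12 on chromosome 9, Id3 on chromosome 4 and Id1 on chromosome 2 were therefore not compared for the lists concerned. The antibody catalogue numbers of 6 targets were in doubt. Those of E2A, ETS1 and H3K4me3 differed between genotypes. Those of PAX5, IRF4 and H3K4me1 were the same in both genotypes but shared with another target. IKDN E2A carried the number of PAX5 and IRF4, and IKDN H3K4me3 that of H3K4me1. Yet for each of these 12 lists the nearest other list was the same target in the other genotype. Between 69.8% and 98.75% of the 2000 best-scored peaks of a list overlapped 1 of the 5000 best of that nearest list. For IKDN E2A the share was 69.8% with WT E2A, and the next list, IKDN LMO2, reached 64.95%. Defining pre-B genes had H3K4me3 at their start sites, 8 of 8 in IKDN and 8 of 8 in WT cells. T cell markers had it at 0 of 5 in either genotype and myeloid markers at 0 of 5 in IKDN and 1 of 5 in WT cells. Stromal markers had it at 2 of 7 in IKDN and 5 of 7 in WT cells, summing to 1.88 kb in IKDN and 17.5 kb in WT cells; the part of this in the values below was not tested.

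The promoters that carry factor peaks over a known motif are shown here because the values below return to them. They are the 250 bases before the start site, from RefSeq on GRCm38.p6, written 5′ to 3′ on the gene's strand. Capitals mark E-boxes (CANNTG), the ETS consensus CCGGAAGT and the TEAD core GGAATG. The core reads as its reverse complement, CATTCC, where it lies on the other strand. The ETS and TEAD motifs were chosen after the sequences had been seen.
Tcf3 (chr10:80433636-80433885, minus strand): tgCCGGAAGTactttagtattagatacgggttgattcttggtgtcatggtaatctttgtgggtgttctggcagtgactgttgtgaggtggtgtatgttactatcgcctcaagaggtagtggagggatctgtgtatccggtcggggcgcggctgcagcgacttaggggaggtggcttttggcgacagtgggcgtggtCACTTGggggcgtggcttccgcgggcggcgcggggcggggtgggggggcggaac
Tcf12 (chr9:72111820-72112069, minus strand): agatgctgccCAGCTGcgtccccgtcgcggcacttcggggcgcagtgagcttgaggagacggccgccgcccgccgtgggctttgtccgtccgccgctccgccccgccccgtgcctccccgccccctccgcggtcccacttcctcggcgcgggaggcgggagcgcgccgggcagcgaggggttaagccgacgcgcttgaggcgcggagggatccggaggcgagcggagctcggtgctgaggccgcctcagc
Id2 (chr12:25096093-25096342, minus strand): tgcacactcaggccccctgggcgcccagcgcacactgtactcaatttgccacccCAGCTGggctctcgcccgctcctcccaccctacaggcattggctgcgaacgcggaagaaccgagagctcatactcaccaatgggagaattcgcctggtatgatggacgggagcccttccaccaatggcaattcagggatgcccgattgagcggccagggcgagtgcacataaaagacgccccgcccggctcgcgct
Id3 (chr4:136143572-136143821, plus strand): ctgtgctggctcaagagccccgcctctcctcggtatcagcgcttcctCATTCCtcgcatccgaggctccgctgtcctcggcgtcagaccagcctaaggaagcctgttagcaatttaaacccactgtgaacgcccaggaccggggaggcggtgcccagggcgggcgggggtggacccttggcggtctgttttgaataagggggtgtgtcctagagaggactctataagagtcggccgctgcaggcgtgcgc
Of the 32851 mouse promoters searched, each over 300 bases and on both strands, 72.3% held CANNTG, 16.3% held CAGCTG (a subset of CANNTG), 3.89% held CCGGAAGT and 14.7% held GGAATG. RefSeq promoters were matched for 5 of the 7 genes: Tcf3, Tcf12, Id2, Id3 and Id4. CAGGTG and TGGGAA were searched too, and 20.2% and 25.6% of all promoters held them. No matched promoter held CAGGTG. The Id4 promoter, not printed, held GGAATG (as CATTCC at -226) and TGGGAA (as TTCCCA at -245), neither of them under a factor peak. The table gave 3 start sites for Tcf12, and the first is shown. A match describes these letters only.

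For the chromatin targets, a gene was called where the length covered by its peaks differed by at least 1000 bp and 1.5 times between IKDN and WT cells. For the factors, whose peaks apart from those of MED1 have a fixed width in each list, it was called where the number of peaks differed by at least 2 and 1.5 times. These are rules of size, and the shares of all genes with a peak in either list that passed them are given beside each count. Over the 7 genes, 8 chromatin values were called higher in IKDN cells and 16 lower, and 19 factor values were called higher and 7 lower. These pooled counts have no single share beside them. Over all genes, higher calls outnumbered lower ones for each factor but E2A and Aiolos. Among the chromatin targets, lower calls outnumbered higher ones over all genes for H3K4me3 and H3K27me3 only.

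H3K27ac was called higher in IKDN cells at 2 of 6 genes with a peak (Tcf4 and Id1), against 21.9% of all genes, and lower at 2 (Tcf3 and Id2), against 16.8%. The median difference was -0.241 kb for these genes and 0.119 kb for all genes. H3K4me1 was called higher at 2 of 6 (Tcf4 and Id1), against 21.6% of all genes, and lower at 1 (Tcf3), against 20%. H3K4me2 was called higher at 1 of 7 (Id4), against 15.1%, and lower at 1 (Tcf3), against 12.9%. The H3K27ac and H3K4me1 calls thus ran in opposite directions at Tcf3 and Tcf4, and the counts were near those of all genes.

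H3K4me3 was called lower in IKDN cells at 4 of 7 genes (Tcf3, Id2, Id3 and Id4), against 10.9% of all genes, and higher at 0, against 5.14%. The median difference was -1.59 kb for these genes and -0.205 kb for all genes. The IKDN library was the smaller here by inferred tags. Its antibody number also differed from that of the WT library and was the one given for H3K4me1. The part of either in the count was not tested. H3K36me3 was called higher at 2 of 6 (Tcf4 and Tcf12), against 30.4%, and lower at 1 (Id3), against 10.1%. H3K27me3 was called lower at 3 of 6 (Tcf4, Tcf12 and Id1), against 33.3%, and higher at 0, against 29.6%. RNAPII was called lower at 4 of 7 (Tcf4, Tcf12, Id1 and Id2), against 24.8%, and higher at 1 (Tcf3), against 27.2%.

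**Figure D1:**
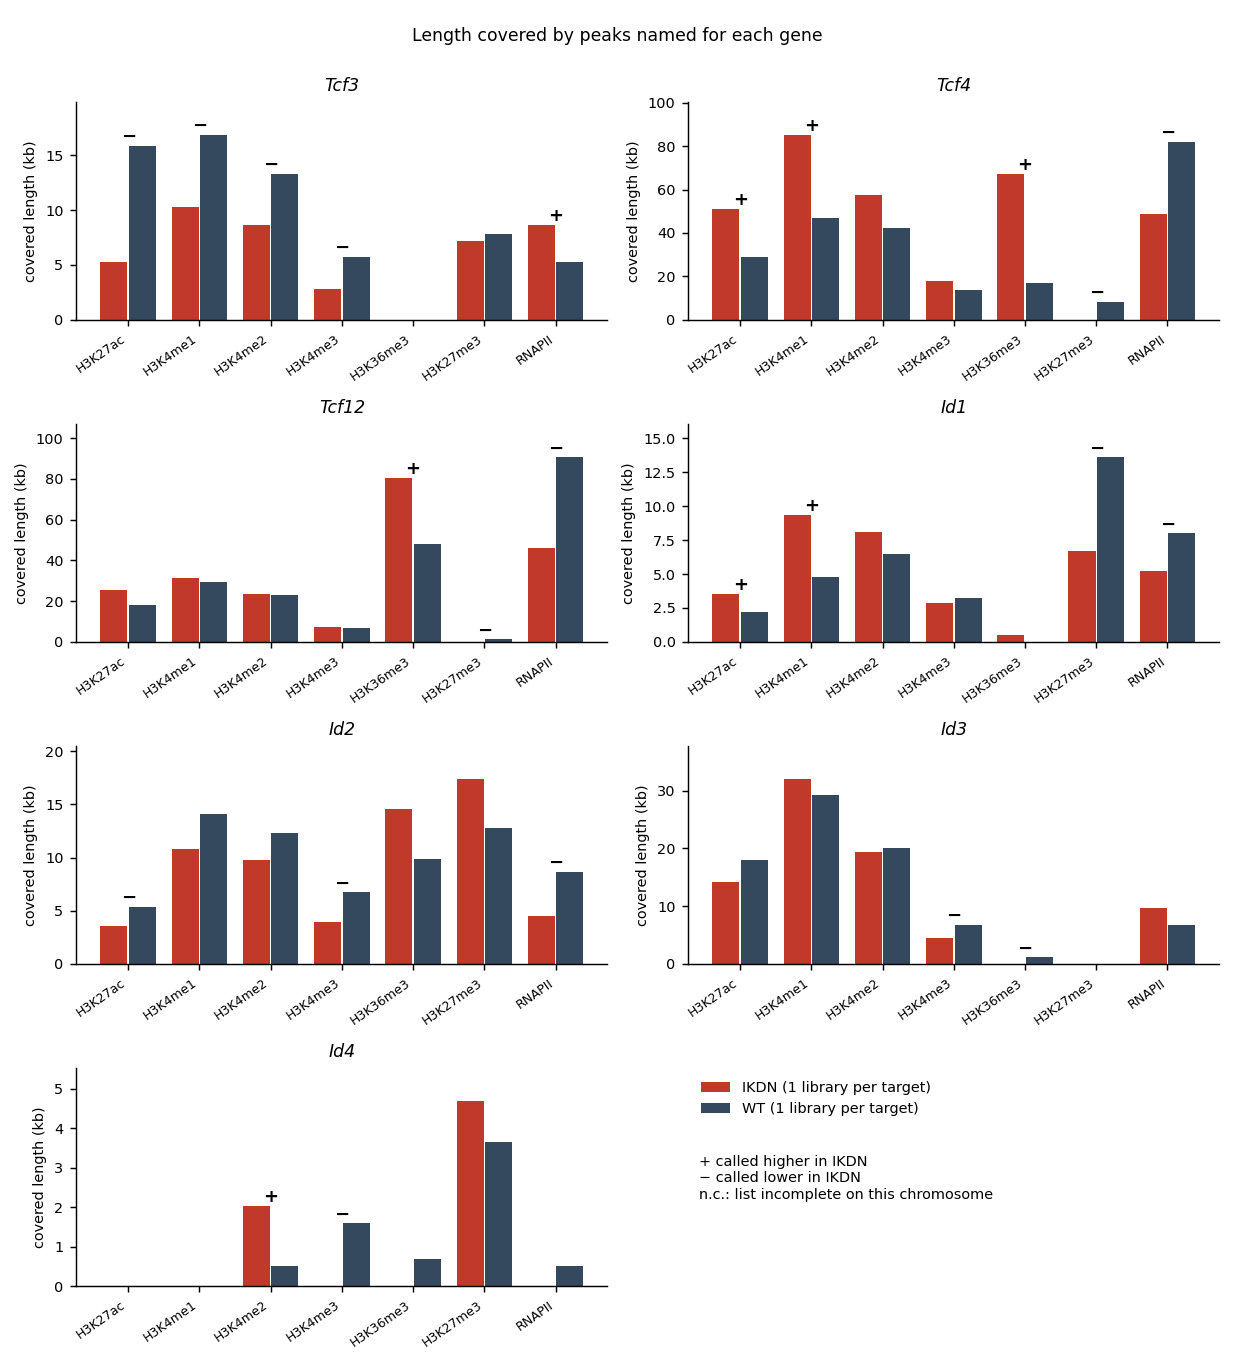
Length covered by peaks named for each gene (kb, linear axis from 0) for the 7 chromatin targets, IKDN left of WT, 1 library per bar, with + for a value called higher in IKDN and − for one called lower. Tcf3 has less H3K27ac in IKDN cells (5.30 kb, against 15.9 kb in WT cells), while Tcf4 has more (51.2 kb, against 29.0 kb).

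MED1 peaks were called more numerous in IKDN cells at 5 of 6 genes with a peak (Tcf4, Tcf12, Id1, Id2 and Id3), against 21.8% of all genes, and fewer at 1 (Tcf3), against 2.25%. The IKDN MED1 list held 24239 peaks from an inferred 33.8 M tags, and the WT list 12105 peaks from 30.5 M tags. With both lists cut to the same number of best-scored peaks, Id2 alone kept its higher MED1 call and Tcf3 its lower call. E2A was comparable at 3 genes and was called fewer at 2 (Tcf3 and Id2), against 24.5%, and more at 0, against 5.09%. The E2A antibody number and inferred tag total differed between genotypes, and the part of this was not tested. EBF1 was called more at 2 of 6 (Tcf4 and Id3), against 15.8%, and fewer at 1 (Tcf3), against 3.82%.

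PAX5 was called more numerous at 2 of 6 genes (Tcf4 and Id4), against 15%, and fewer at 2 (Id2 and Id3), against 3.82%. IRF4 was called more at 3 of 6 (Tcf4, Id1 and Id3), against 21.4%, and fewer at 0, against 2.81%. ETS1 was called more at 3 of 6 (Tcf3, Tcf4 and Tcf12), against 18.7%, and fewer at 0, against 3.06%. TEAD1, a factor of the Hippo pathway, was called more at 3 of 7 (Tcf4, Tcf12 and Id1), against 24.3%, and fewer at 1 (Id4), against 7.88%. Aiolos was called more at 1 of 4 (Tcf4), against 5.01%, and fewer at 0, against 9.04%. IKDN lists were the longer ones for MED1, EBF1, PAX5, IRF4, ETS1 and TEAD1, and with equal numbers of peaks the 19 higher factor calls became 6.

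**Figure D2:**
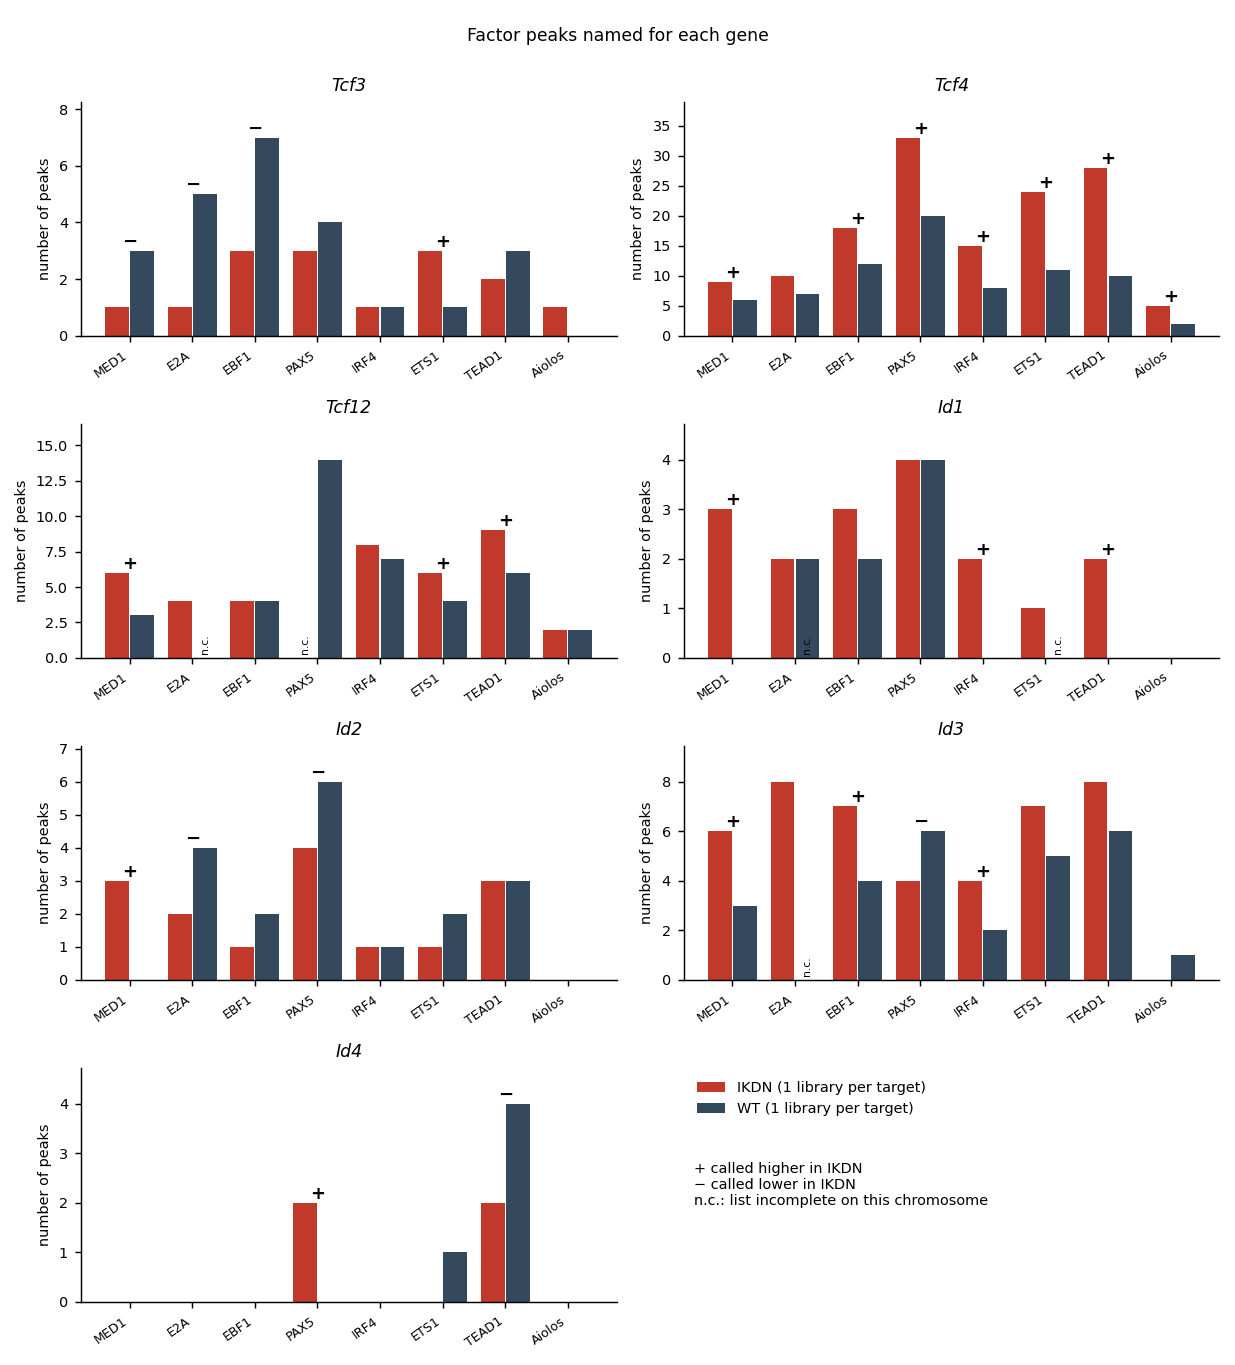
Number of factor peaks named for each gene (linear axis from 0), IKDN left of WT, 1 library per bar; n.c. marks a list that is incomplete on that chromosome. Tcf4 has more peaks of TEAD1 in IKDN cells (28, against 10 in WT cells) and Tcf3 has fewer of EBF1 (3, against 7).

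Tcf3, the gene for E2A itself, had less H3K27ac and fewer E2A and EBF1 peaks in IKDN cells, while H3K36me3 covered its body to nearly the same length in both genotypes. In what follows, positions are peak centres in kb from the annotated 5′ end of the gene, negative upstream. Peaks are described by name of gene unless stated. Motif positions are instead in bases from the start site of the printed promoter. At Tcf3 and Tcf12 that start site lies inside the annotated gene. H3K27ac covered 5.30 kb in IKDN cells, against 15.9 kb in WT cells, and a loss at least as large was found at 310 of 15283 genes. The whole IKDN value was 1 peak over the promoter, ranked in the top 4.90% of its list. In WT cells the promoter peak was 11.4 kb long and in the top 0.336%, and a further 3.20 kb peak lay at -9.88 kb with no counterpart in IKDN cells. H3K4me1 covered 10.2 kb in IKDN cells and 16.9 kb in WT cells, H3K4me2 8.68 kb and 13.3 kb, and H3K4me3 2.85 kb and 5.74 kb. The H3K4me3 peak ranked in the top 6.36% in IKDN and the top 1.73% in WT cells. By number of peaks H3K4me1 and H3K4me2 turned round, with 5 in IKDN and 4 in WT cells each.

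E2A peaks at Tcf3 numbered 1 in IKDN cells and 5 in WT cells. The remaining IKDN peak lay at -10.5 kb and ranked in the top 58.7%, and the WT peak at the same place was the best-ranked of the 5, in the top 5.94%. The other WT peaks lay at 4.07, -1.91, -9.23 and -12.4 kb and overlapped no IKDN E2A peak. EBF1 peaks numbered 3 in IKDN and 7 in WT cells, a loss of at least that size being found at 59 of 14164 genes. At 4.09 kb inside the gene the WT lists held E2A, EBF1, PAX5 and TEAD1 peaks over each other, and at -1.97 kb E2A, EBF1 and PAX5, while no IKDN factor peak lay at either place. MED1 peaks numbered 1 in IKDN and 3 in WT cells, and the pair missing in IKDN cells lay at 3.86 and -2.01 kb, beside those sites. Over the gene and 10 kb on either side, whatever their name, MED1 peaks numbered 4 in each genotype and were not called.

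The Tcf3 start site itself kept its factors. ETS1 ranked there in the top 0.687% in IKDN and the top 0.751% in WT cells, and both peaks covered the CCGGAAGT at -248 printed above. ETS1 peaks numbered 3 in IKDN and 1 in WT cells, the additional IKDN peaks lying at -27.4 and -26.9 kb. Over the gene and its flanks the direction turned, with 3 in IKDN and 4 in WT cells. The promoter site carried peaks of 7 factors in IKDN cells (ETS1, IRF4, TEAD1, PAX5, Aiolos, LHX2 and LMO2) and of 3 in WT cells (ETS1, IRF4 and TEAD1). Of these, LHX2 and LMO2 were not mapped in WT cells. Of the factor peaks named for Tcf3, 9 of 18 lay in an H3K27ac peak in IKDN cells and 23 of 27 in WT cells. These counts include LHX2 and LMO2 in IKDN cells only and Ikaros in WT cells only.

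Ikaros, mapped in WT cells, had 3 peaks at Tcf3, at 2.26, -9.19 and -11.99 kb, the best in the top 6.25% of its list. The one at -9.19 kb overlapped WT E2A and EBF1 peaks inside the upstream H3K27ac peak. No IKDN factor peak lay at any of the 3 places. Over the 7 genes, these 3 included, 36 of 46 Ikaros sites held one, of which Tcf4 gave 20 of 24. The share over all Ikaros peaks is not given here, so these small counts are description only.

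RNAPII named for Tcf3 covered 8.64 kb in IKDN and 5.27 kb in WT cells and was called higher, but the polymerase peaks at the 3′ end were named for Uqcr11, a neighbouring gene. Over the gene and its flanks RNAPII covered 24.0 kb in IKDN and 27.2 kb in WT cells, which turned the direction and was not called. H3K36me3, named entirely for Uqcr11, covered the gene in 1 peak of 22.6 kb in IKDN and 22.4 kb in WT cells. It ranked in the top 1.73% in IKDN and the top 0.409% in WT cells. H3K27ac counted in this way was 11.8 kb in IKDN and 20.7 kb in WT cells and was still called lower, as was H3K4me1 with 9.86 kb and 19.0 kb. H3K4me2 and H3K4me3 were no longer called, with 11.5 kb and 6.23 kb in IKDN and 16.7 kb and 9.26 kb in WT cells. H3K27me3 lay upstream, between -28.6 and -14.3 kb, with 7.22 kb in IKDN and 7.83 kb in WT cells, and was not called.

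Tcf4 went the other way, with more length of H3K27ac, H3K4me1 and H3K36me3 and more peaks of 7 of 8 factors in IKDN cells. H3K27ac covered 51.2 kb in 24 peaks in IKDN cells, against 29.0 kb in 14 peaks in WT cells, and a gain at least as large was found at 65 of 15283 genes. H3K4me1 covered 85.1 kb in IKDN and 46.7 kb in WT cells, and H3K36me3 67.1 kb and 17.0 kb. The gene is 345 kb long, and covered lengths and peak numbers are not divided by gene length. Its promoter H3K27ac peak was 7.03 kb long in the top 3.07% in IKDN and 6.99 kb in the top 2.83% in WT cells. The MED1 peak there ranked in the top 5.19% in IKDN and the top 22.2% in WT cells, and the RNAPII peak was 5871 bp long in IKDN and 9203 bp in WT cells. H3K4me3 covered 17.8 kb in IKDN and 13.6 kb in WT cells and H3K4me2 57.4 kb and 42.3 kb, neither of which was called.

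The additional H3K27ac in IKDN cells lay mostly inside the gene. Peaks of 2.39 kb at 51.9 kb, 1.93 kb at 201 kb and 1.91 kb at 30.7 kb, and one of 1.83 kb at -110 kb, overlapped no WT H3K27ac peak. Peaks present in both genotypes were longer in IKDN cells at 73.1 kb (6.38 kb, against 5.61 kb in WT cells) and at 251 kb (7.80 kb, against 5.81 kb). MED1 covered 14.2 kb in 9 peaks in IKDN and 6.09 kb in 6 peaks in WT cells. With equal numbers of peaks taken from the lists the MED1 count turned to 1 fewer in IKDN cells.

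H3K27me3 was called lower at Tcf4, with 0 kb in IKDN and 8.18 kb in WT cells, but these WT peaks lay upstream of the gene, the nearest at -16.9 kb and the longest at -144 kb. Over the gene and 10 kb on either side H3K27me3 was 0 kb in IKDN and 0.649 kb in WT cells and was not called. RNAPII covered 48.7 kb in 38 peaks in IKDN and 81.9 kb in 59 peaks in WT cells. It was called lower, in the opposite direction to H3K36me3. The whole lists differed in the same directions. H3K36me3 covered 205 Mb in IKDN and 162 Mb in WT cells, and RNAPII 99.9 Mb and 120 Mb. Inferred RNAPII tags were 24.2 M in IKDN and 34.7 M in WT cells. The part of this in the values at Tcf4 was not tested. Towards the 3′ end 101 peaks were named for Ccdc68. Counted whatever their name, RNAPII was 82.6 kb in IKDN and 120 kb in WT cells, no longer called, and H3K36me3 was 119 kb in IKDN and 59.0 kb in WT cells, still called higher.

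TEAD1 showed the largest factor difference at Tcf4 by number of peaks, with 28 in IKDN and 10 in WT cells, and 26 of 17755 genes gained as many. Its best peak ranked in the top 2.05% in IKDN and the top 14.9% in WT cells. ETS1 had 24 peaks in IKDN and 11 in WT cells, PAX5 33 and 20, and EBF1 18 and 12. IRF4 had 15 in IKDN and 8 in WT cells, Aiolos 5 and 2, and E2A 10 and 7, of which E2A was not called. With equal numbers of peaks taken from the chromosomes complete in both E2A lists, the E2A difference was 6 more in IKDN cells and was called. The best E2A peak ranked in the top 26.7% in IKDN cells, at 31.4 kb, and in the top 4.48% in WT cells, at 156 kb. With equal numbers of peaks, TEAD1 (9 more in IKDN cells) and Aiolos (4 more) were still called at Tcf4, while EBF1, PAX5, IRF4 and ETS1 kept the direction and lost the call.

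Overlapping factor peaks were merged into sites, MED1 left out. Tcf4 held 87 sites, 38 with IKDN peaks only, 10 with WT peaks only and 39 with both. LHX2 and LMO2 were mapped in IKDN cells only and Ikaros in WT cells only. Sites made of these factors alone therefore fall to that genotype by design. The IKDN lists of EBF1, PAX5, IRF4, ETS1 and TEAD1 were also the longer ones. The part of either in these counts was not tested, and no share over all genes is given here. The richest, 129 kb into the gene, carried all 10 DNA-associated factors, with E2A, LHX2 and LMO2 in IKDN cells, Ikaros in WT cells, and EBF1, PAX5, IRF4, ETS1, TEAD1 and Aiolos in both. Sites with IKDN peaks only included one at -57.5 kb with 6 factors (EBF1, ETS1, LHX2, LMO2, PAX5 and TEAD1) and one at 232 kb with 5 (E2A, ETS1, LHX2, LMO2 and TEAD1). Ikaros lay at 24 of the Tcf4 sites in WT cells, of which 20 held a factor peak in IKDN cells and 16 held LHX2, LMO2 or TEAD1 there. LMO2 had 8 peaks at Tcf4 and LHX2 had 23, and 6 of the 8 LMO2 sites also held IKDN E2A. The shares over all Ikaros and LMO2 peaks are not given here.

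Tcf12, the gene for HEB, had longer H3K36me3 along its body in IKDN cells and a promoter H3K4me3 peak of like rank in both genotypes. H3K36me3 covered 80.6 kb in IKDN and 48.2 kb in WT cells, and the best-ranked peak was in the top 0.806% in IKDN and the top 10.9% in WT cells. RNAPII covered 46.3 kb in IKDN and 90.7 kb in WT cells, a loss of at least that length being found at 108 of 15305 genes. H3K36me3 and RNAPII length thus differed in opposite directions, as at Tcf4, although by number RNAPII peaks were 40 in IKDN and 33 in WT cells. The lengths covered by the whole lists differed in the same directions, and the part of this at Tcf12 was not tested. H3K4me3 covered 7.17 kb in IKDN and 7.03 kb in WT cells, with the best peak ranked in the top 1.88% and the top 1.78%. Other peaks over the promoter shown above differed more in rank. The MED1 peak there ranked in the top 5.57% in IKDN and the top 22.2% in WT cells. An H3K4me1 peak overlapped only the upstream end of this promoter, by 18 bases in IKDN and 29 in WT cells. It ranked in the top 70.8% in IKDN and the top 91.4% in WT cells. RNAPII spanned chr9:72110651-72112475 in IKDN (top 10.7%) and chr9:72110425-72112412 in WT cells (top 13.7%). At start site 3, inside the gene, H3K4me1 ranked in the top 2.6% in IKDN and the top 18.6% in WT cells. RNAPII at start site 3 ranked in the top 26.0% in IKDN and the top 6.69% in WT cells.

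Much of Tcf12's interior was named for Mir378a, which took 211 peaks of the gene and its 10 kb flanks. Counted whatever their name, H3K27ac was 54.3 kb in IKDN and 32.2 kb in WT cells and H3K4me1 95.8 kb and 54.4 kb, both then called higher, whereas by name H3K27ac was 25.2 kb and 18.0 kb and H3K4me1 31.2 kb and 29.4 kb, neither called. RNAPII counted in this way was 67.9 kb in IKDN and 140.5 kb in WT cells and H3K36me3 97.1 kb and 50.6 kb. Both kept their calls. MED1 by name had 6 peaks in IKDN and 3 in WT cells, and over the gene and flanks 12 and 2; with equal numbers of peaks taken from the lists the count by name turned to 1 fewer in IKDN cells. H3K27me3 was 0 kb in IKDN cells and 1.19 kb in WT cells, in peaks at -74.0 and -44.9 kb.

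ETS1 had 6 peaks at Tcf12 in IKDN and 4 in WT cells, and TEAD1 9 and 6, both called more numerous. With equal numbers of peaks, TEAD1 turned to 3 fewer in IKDN cells and ETS1 to no difference. Ikaros had 9 peaks in WT cells, the best of any of the 7 genes by rank, in the top 0.138%. A site at -21.3 kb carried 9 factors, with E2A and LHX2 in IKDN cells, Ikaros and PAX5 in WT cells, and ETS1, EBF1, IRF4, TEAD1 and Aiolos in both genotypes. At the promoter, the CAGCTG at -240 lay under IKDN peaks of E2A, EBF1 and TEAD1 and a WT peak of TEAD1; the E2A peak ranked in the top 19.8%. The WT E2A and IKDN PAX5 lists are incomplete there, so these proteins are not compared.

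**Figure D3:**
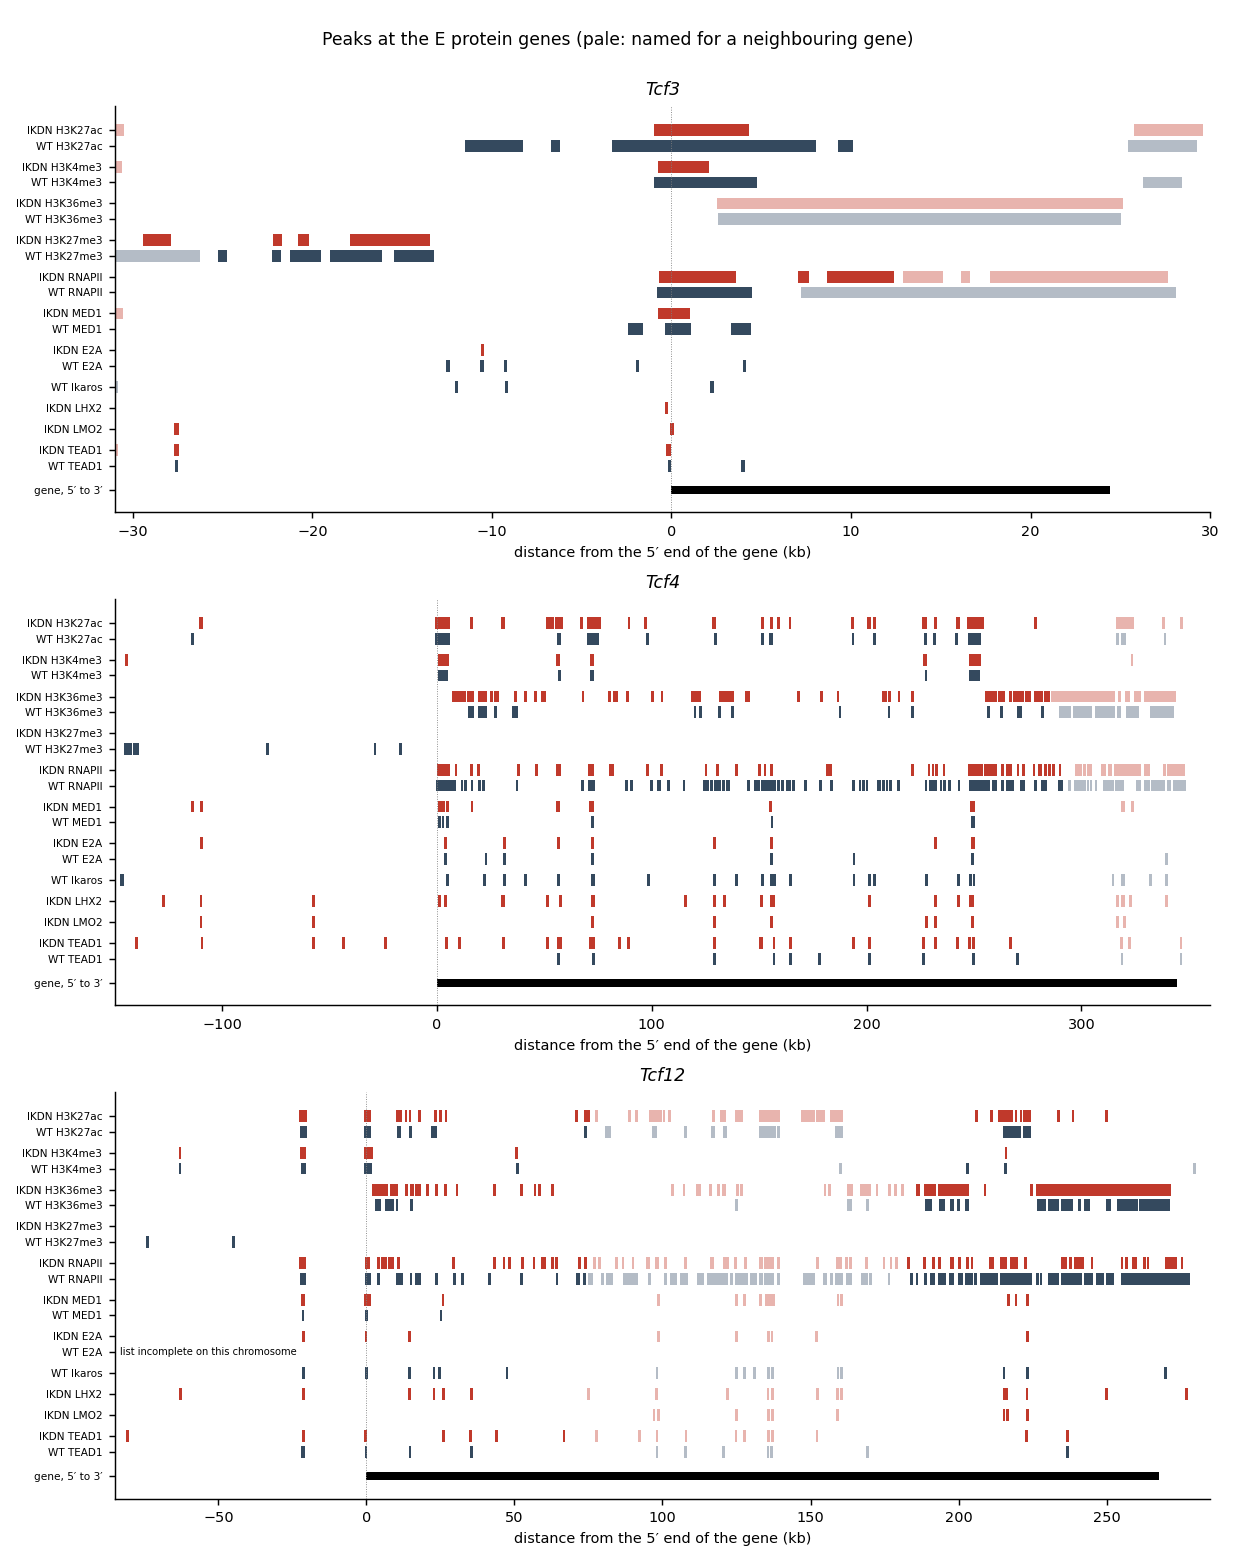
Peaks at Tcf3, Tcf4 and Tcf12 by distance from the 5′ end of the gene (kb), each target with IKDN above WT where both were mapped, 1 library per row; pale bars are peaks named for a neighbouring gene and the black bar is the gene. The WT H3K27ac peak at -9.88 kb from Tcf3 has no IKDN counterpart, and H3K36me3 over Tcf4 covers more in IKDN cells (67.1 kb, against 17.0 kb).

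Id1 is switched on by BMP signalling in many tissues. It had a shorter H3K27me3 domain in IKDN cells and low-ranked H3K27ac in both genotypes. The H3K27me3 peak over its promoter was 4.20 kb long in IKDN cells, in the top 7.50% of the list, and 9.32 kb long in WT cells, in the top 1.34%. With a second peak, at -11.3 kb in IKDN and -12.1 kb in WT cells, H3K27me3 covered 6.70 kb in IKDN and 13.6 kb in WT cells. H3K27ac covered 3.56 kb in IKDN and 2.24 kb in WT cells, and its best peak reached only the top 51.7% in IKDN and the top 65.6% in WT cells. H3K4me1 covered 9.39 kb in IKDN and 4.75 kb in WT cells, and H3K4me3 2.84 kb and 3.22 kb, the last not called. Its promoter peaks of other marks ranked higher, in the top 7.50% in IKDN and the top 11.4% in WT cells for H3K4me2, and the top 4.69% and the top 13.7% for H3K4me1. RNAPII covered 5.23 kb in IKDN and 8.01 kb in WT cells, most of the difference being WT peaks at -19.2 and -17.2 kb, and its promoter peak ranked in the top 7.50% in IKDN and the top 7.98% in WT cells. Over the gene and its flanks RNAPII was 5.23 kb in IKDN and 5.99 kb in WT cells and was not called.

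MED1 had 3 peaks at Id1 in IKDN and 0 in WT cells, and IRF4 and TEAD1 each 2 and 0. All 3 were called more numerous, on counts this small. A site 3.14 kb after the 5′ end, beyond the gene's 3′ end, carried E2A, LMO2, PAX5 and TEAD1 in IKDN cells, and one at 5.5 kb carried ETS1, IRF4, LHX2, LMO2 and PAX5. No WT factor peak lay at either place, but the WT ETS1 list has none on this chromosome. E2A had 2 peaks in each genotype, of which the upstream one was shared in place, at -12.2 kb in both. The other lay at 3.22 kb in IKDN and 1.73 kb in WT cells.

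Id2, an antagonist of E proteins best known from innate lymphocytes and natural killer cells, had fewer E2A peaks and less H3K4me3 and RNAPII in IKDN cells, beside a large H3K27me3 domain. H3K27me3 covered 17.4 kb in IKDN and 12.8 kb in WT cells, which was not called, and the main peak ranked in the top 1.36% in IKDN and the top 0.752% in WT cells. H3K4me3 covered 3.95 kb in IKDN and 6.73 kb in WT cells, although by number its peaks were 3 in IKDN and 2 in WT cells. RNAPII covered 4.53 kb in IKDN and 8.65 kb in WT cells. H3K27ac covered 3.56 kb in IKDN and 5.37 kb in WT cells. The H3K27ac loss was 1 WT peak of 2.74 kb that lay 41.1 kb downstream and had no IKDN counterpart; over the gene and 10 kb on either side the value was 3.56 kb in IKDN and 2.63 kb in WT cells, which turned the direction. H3K36me3 named for Id2 lay in a neighbouring transcript, not in Id2.

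E2A had 2 peaks at Id2 in IKDN and 4 in WT cells. A WT peak in the top 22.2% covered the CAGCTG at -196 of the promoter printed above, together with a WT TEAD1 peak, while in IKDN cells MED1 was the sole factor with a peak over it. IKDN E2A remained at -2.22 kb, in the top 16.8% against the top 39.4% in WT cells, and at 41.0 kb, in the top 33.9% against the top 27%. MED1 had 3 peaks in IKDN and 0 in WT cells, at the promoter, at -2.55 kb and at 41.2 kb. EBF1 kept a strong peak about 0.6 kb before the 5′ end, in the top 1.75% in IKDN and the top 3.84% in WT cells. PAX5 had 4 peaks in IKDN and 6 in WT cells, and 1 in each within 10 kb of the gene.

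Id3, which restrains E proteins during lymphocyte maturation, had the best-ranked RNAPII peak of the Id genes, and H3K4me3 and H3K36me3 were its called chromatin values. Its RNAPII peak ranked in the top 0.905% in IKDN and the top 1.34% in WT cells, and RNAPII covered 9.67 kb and 6.70 kb, which was not called. H3K27ac covered 14.1 kb in IKDN and 18.1 kb in WT cells, H3K4me1 32.0 kb and 29.3 kb, and H3K4me2 19.3 kb and 20.05 kb, none of them called. The promoter H3K27ac peak was 3.76 kb in the top 13.7% in IKDN and 7.31 kb in the top 4.46% in WT cells. H3K4me3 covered 4.48 kb in IKDN and 6.73 kb in WT cells, its best peak in the top 43.7% in IKDN and the top 14.4% in WT cells. Over the gene and its flanks, with 4.48 kb in IKDN and 6.23 kb in WT cells, it was not called. H3K36me3 was 0 kb in IKDN and 1.14 kb in WT cells. No H3K27me3 peak was named for Id3 in either genotype.

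MED1 had 6 peaks at Id3 in IKDN and 3 in WT cells, EBF1 7 and 4, and IRF4 4 and 2, all called more numerous. PAX5 had 4 in IKDN and 6 in WT cells and was called fewer, although with the better-scored 50% of each list the difference turned to 2 more. The best PAX5 peak was in the top 0.373% in IKDN and the top 0.172% in WT cells. TEAD1 had 8 peaks in IKDN and 6 in WT cells, and at the promoter its peaks, in the top 2.38% in IKDN and the top 1.97% in WT cells, covered the CATTCC at -203 printed above.

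E2A in IKDN cells had 8 peaks at Id3, the best at 4.17 kb in the top 4.53%. Ikaros in WT cells had peaks at nearly the same places: at 4.18 kb, at 1.05 kb beside the E2A peak at 1.04 kb, and at -3.24 kb beside the one at -3.26 kb. Of the 7 LMO2 peaks at Id3 in IKDN cells, 5 lay at sites that also held E2A, with no share over all LMO2 peaks given here. At -38.7 kb the IKDN lists held E2A, EBF1, ETS1, IRF4, LMO2, PAX5 and TEAD1, and the WT lists EBF1 alone. The WT E2A list lacks this chromosome, so E2A at Id3 could not be set against WT cells.

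Id4 showed no H3K27ac, H3K4me1, MED1 or E2A peak in either genotype and few peaks of anything else. H3K4me3 and RNAPII had 1 peak each in WT cells, of 1.59 kb in the top 65.1% and 0.5 kb in the top 90.7%, and 0 in IKDN cells. H3K4me2 covered 2.03 kb in IKDN and 0.5 kb in WT cells. H3K27me3 named for Id4 covered 4.68 kb in IKDN and 3.65 kb in WT cells. The IKDN promoter domain, 5.96 kb long and in the top 3.27%, was named for the neighbouring transcript A330033J07Rik. Counted whatever their name, H3K27me3 peaks over the gene and its flanks covered 6.96 kb in IKDN and 2.85 kb in WT cells, which was called higher. TEAD1 had 2 peaks in IKDN and 4 in WT cells, but 2 in each over the gene and flanks. PAX5 had 2 in IKDN, ranked no better than the top 90.9%, and 0 in WT cells.

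**Figure D4:**
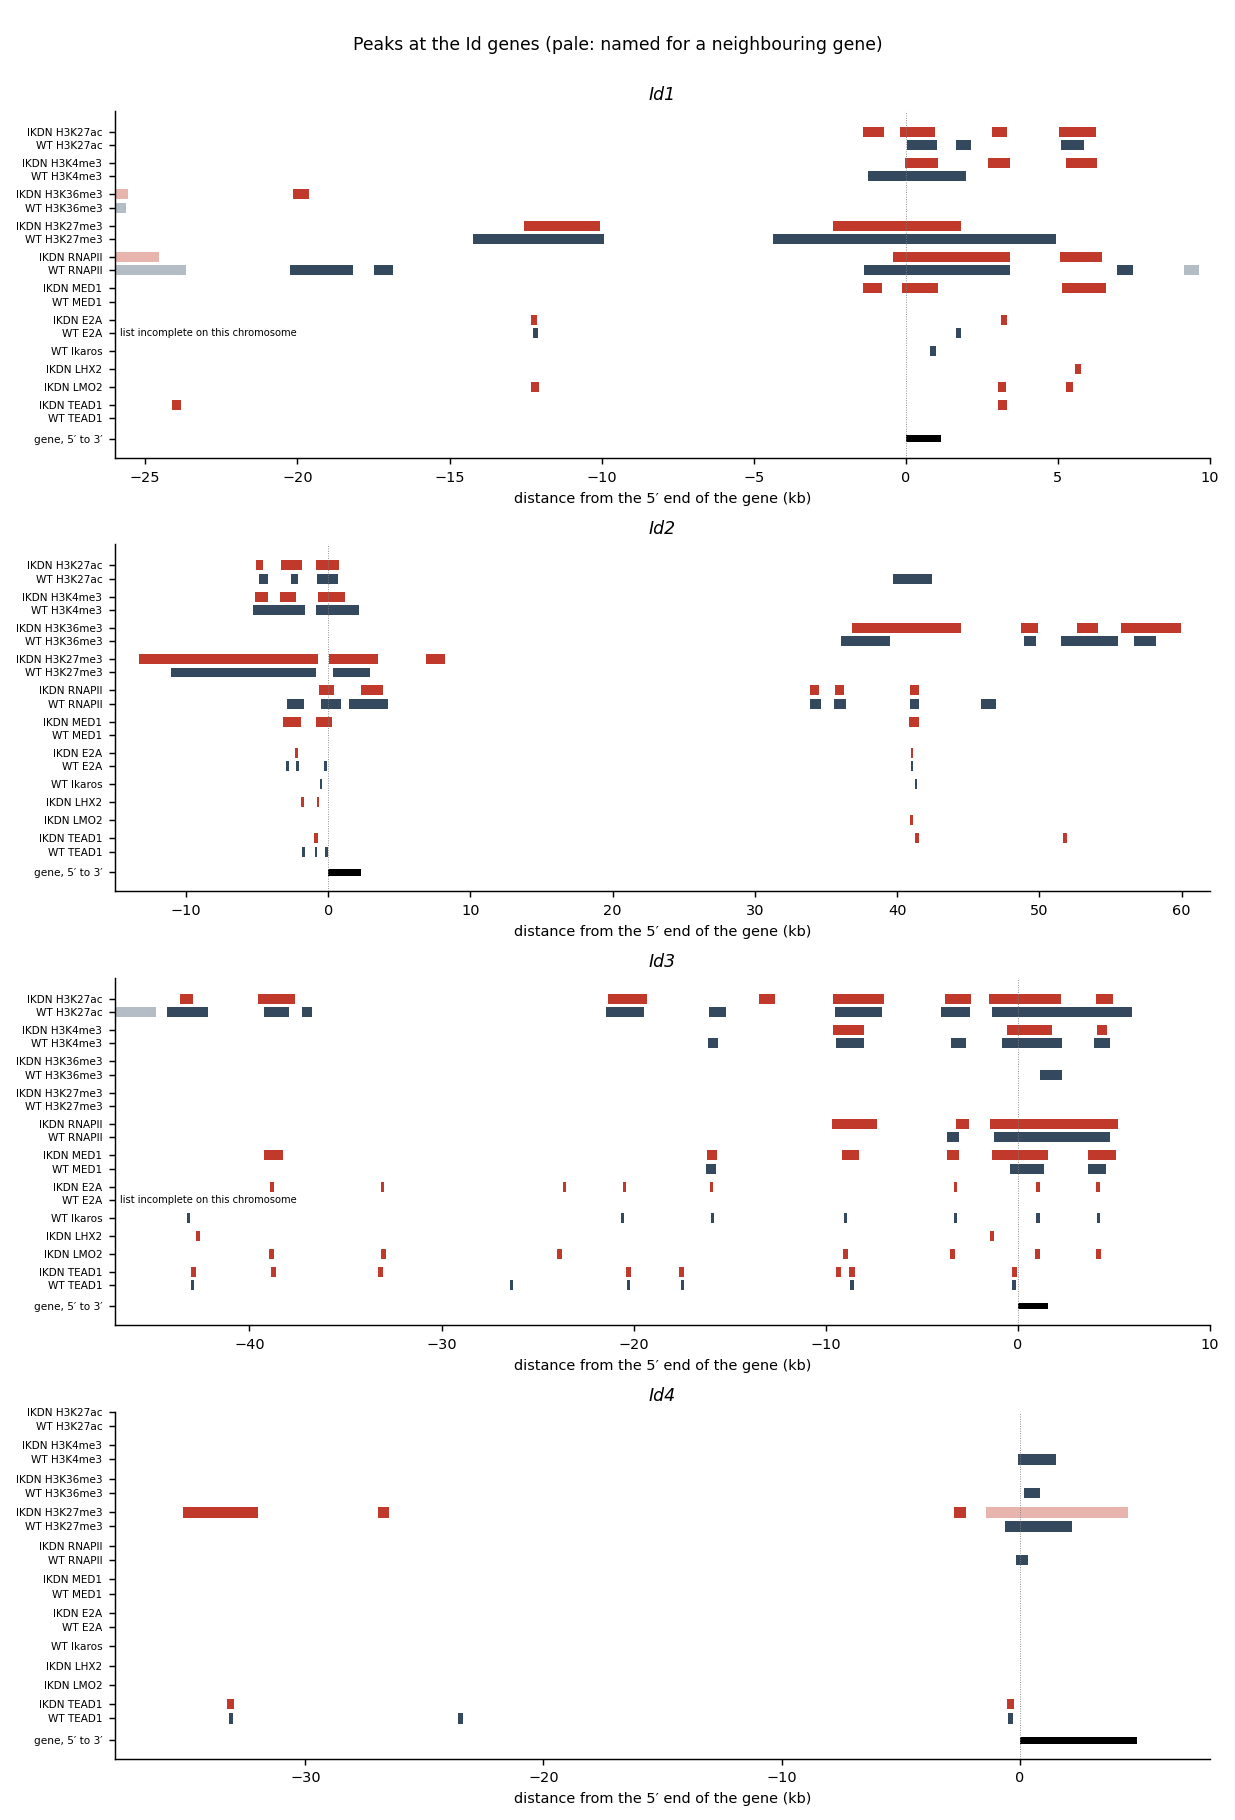
Peaks at Id1, Id2, Id3 and Id4 by distance from the 5′ end of the gene (kb), each target with IKDN above WT where both were mapped, 1 library per row; pale bars are peaks named for a neighbouring gene and the black bar is the gene. Id1, Id2 and Id4 have H3K27me3 over or beside the gene in both genotypes, and Id3 has none.

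Differences across the chromatin targets and MED1 are summarized as the log2 ratio of covered length, with 500 bp added to each value. The other factors are left out, since their fixed peak width differs between the lists. Tcf3 was at -1.50 for H3K27ac and Tcf4 at 1.95 for H3K36me3. Id1 and Id2 were at 2.90 and 2.85 for MED1, where the WT value was 0.

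**Figure D5:**
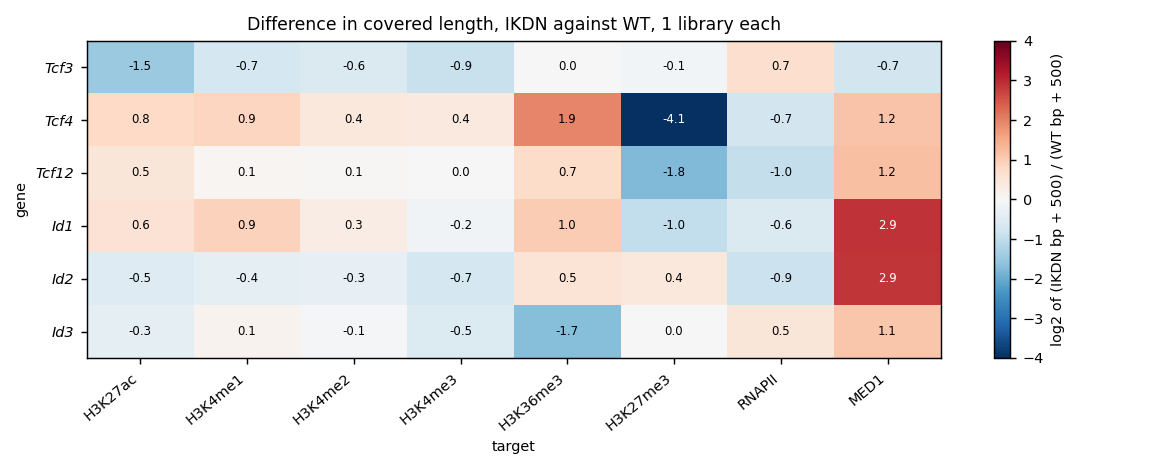
The log2 ratio of covered length in IKDN over WT cells, 500 bp added to each, for 6 genes (rows; Id4 has too few peaks) and 8 targets (columns), 1 library per genotype and target. Blue is lower and red higher in IKDN cells; H3K27ac is blue at Tcf3 (-1.50) and red at Tcf4 (0.81).

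Peaks of these genes were counted as shared between genotypes at an overlap of at least 1 bp. For the chromatin targets 238 of 366 IKDN peaks (65.0%, exact 95% interval 59.9 to 69.9%) overlapped a WT peak and 234 of 329 WT peaks (71.1%, 65.9 to 76.0%) an IKDN peak, against 59.7% of all IKDN and 63.8% of all WT peaks. For the factors the numbers were 120 of 261 IKDN peaks (46.0%, 39.8 to 52.2%) and 121 of 182 WT peaks (66.5%, 59.1 to 73.3%), against 52.1% and 68.0% of all peaks. Peaks of 1 gene are not independent, so the intervals cover counting error only and are too narrow.

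Factor peaks of these genes lay in an H3K27ac peak of the same genotype in 225 of 341 cases in IKDN cells (66.0%) and 160 of 244 in WT cells (65.6%), against 51.8% and 46.5% for all genes. The share was lower in IKDN cells at Tcf3 (50%, against 85.2% in WT cells), Id2 (50%, against 70%) and Id3 (69.8%, against 88.2%). It was higher in IKDN cells at Tcf4 (68.2%, against 56%), Tcf12 (72.2%, against 67.3%) and Id1 (61.9%, against 44.4%), and 0% in both genotypes at Id4. The factors behind these shares differ between genotypes. The IKDN peaks include 41 of LHX2 and 24 of LMO2, and the WT peaks include 46 of Ikaros. Chromosomes of incomplete lists were also kept, so E2A at Tcf12 and Id3 counts in IKDN cells only. The part of this in the shares was not tested. In all, 187 factor sites were found, 61 with IKDN peaks only, 40 with WT peaks only and 86 with both, where incomplete lists can hide a peak (WT E2A at Tcf12 and Id3, WT ETS1 at Id1, IKDN PAX5 at Tcf12). Sites made of LHX2 or LMO2 alone are IKDN only by design, and those of Ikaros alone WT only. The part of this and of the longer IKDN lists was not tested, and these counts have no share over all genes beside them. Of the 24 sites with LMO2 in IKDN cells 15 also held E2A.

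Other genes of the pathway were read from lists chosen with earlier results of these data known. Among 20 partners and cofactors of E proteins, 18 had H3K27ac, of which by name 4 were called higher and 3 lower in IKDN cells, against 21.9% and 16.8% of all genes. Counted by position, over the gene and 10 kb on either side whatever the name, 3 were called higher and 4 lower, against 18.3% and 12.6% of all genes. The largest gains by name were at Tal2, a helix-loop-helix partner, with 8.81 kb in IKDN and 0 kb in WT cells, and at Lmo2, with 25.7 kb and 17.0 kb. By position Tal2 had 5.77 kb in IKDN and 0 kb in WT cells, and Lmo2 had 7.98 kb and 2.655 kb. The largest losses by name were at Ssbp2, a subunit of the LMO2 complex, with 4.44 kb in IKDN and 18.0 kb in WT cells, and at Msc, a helix-loop-helix repressor, with 0 kb and 2.38 kb.

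Among 16 genes known as E2A targets in early B cells, 15 had H3K27ac, of which 9 were called lower in IKDN cells and 0 higher, against 16.8% and 21.9% of all genes, and the median difference was -6.98 kb, against 0.119 kb. The losses by name were largest at Bcl11a, a B lineage transcription factor, with 47.1 kb in IKDN and 94.4 kb in WT cells, and at Cd79a, a chain of the B cell receptor complex, with 0 kb and 25.8 kb. The Cd79a difference was not found by position: over the gene and 10 kb on either side H3K27ac was 21.2 kb in IKDN and 22.1 kb in WT cells. By position 7 of the 16 were called lower and 0 higher, against 12.6% and 18.3% of all genes. The largest loss by position in this list was at Ebf1, the partner of E2A, with 73.3 kb in IKDN and 133 kb in WT cells, and Bcl11a had 28.6 kb and 48.3 kb. E2A peaks, comparable for the 9 of these genes with a peak on complete chromosomes, were called fewer at 5 and more at 0, against 24.5% and 5.09% of all genes, and the median difference was -2 peaks, against -1.

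Among 12 genes of BMP and TGF-beta signalling, which induces Id genes, 11 had H3K27ac, of which 5 were called higher and 4 lower by name, against 21.9% and 16.8% of all genes. By position the counts were also 5 and 4, against 18.3% and 12.6%. The largest gains by name were at the ligand Bmp2, with 7.23 kb in IKDN and 0 kb in WT cells, and the inhibitory Smad6, with 9.29 kb and 3.15 kb. By position Bmp2 had 1.05 kb in IKDN and 0 kb in WT cells, a smaller gain than at Smad6, with 7.30 kb and 3.15 kb, and at the ligand Bmp4, with 3.91 kb and 0 kb. The largest losses by name were at the inhibitory Smad7, with 12.7 kb in IKDN and 21.6 kb in WT cells, and the receptor Acvr1, with 0 kb and 3.20 kb. By position Acvr1 had 2.43 kb in IKDN and 5.775 kb in WT cells, and Smad7 had 10.2 kb and 16.3 kb.

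Of 13193 genes with peaks in at least 17 lists, those whose log2 ratios across targets were most like each member were found by Pearson's r over 13 to 15 targets. They were Map6 (r = 0.84) and Nxph1 (0.82) for Tcf3, Abt1 (0.98) and 1700029H14Rik (0.98) for Tcf4, Mgat5 (0.98) and Mrpl1 (0.98) for Tcf12, Sgms1 (0.98) and Tmem135 (0.95) for Id1, Dlgap4 (0.96) and Rpp30 (0.95) for Id2, and 5430427O19Rik (0.92) and Ppp1r3b (0.91) for Id3. The highest r for Tcf3 was thus below that for the other 5. For factors the ratios include the differing peak widths of the lists. All ratios of a target come from the same pair of libraries, so these are descriptions, and the best of many candidates will be high.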

How the data were processed

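Peak lists of 33 libraries were read, 17 IKDN and 16 WT. Per the file headers each list holds coordinates, annotation by nearest start site and a peak score; the score is the authors' deposited value and its scale is not given in the sources used here. Tools recorded for the upstream steps, per the submitters' processing notes, are HOMER, BWA, STAR and bcl2fastq 1.8.3, with builds mm9 and mm10. Positions were read as GRCm38, since 99.4% of the start sites implied by the distance column fell inside or within 1000 bp of the GRCm38.p6 gene. A chromosome on which a list ended more than 10 Mb short of the other lists was left out for that target. Length, number and score rank of peaks were computed with Python 3.11.15, pandas 2.3.3 and numpy 2.4.6; shares carry exact Clopper-Pearson intervals (scipy 1.17.1). Ranks are percentages of the list, best score first. The call rule was tested on simulated data. The inferred tag totals assume scores scaled to 10 M tags. Alternatives without targets with doubtful antibody numbers or unequal tag totals, and with equal peak numbers on complete chromosomes, were added after seeing the data. Motifs were searched in RefSeq promoters, chromosome 18 left out. Named genes are the 7 members, the 2 most alike by Pearson's r, and per pathway list the 2 largest H3K27ac gains and losses among those called; Ebf1, Bmp4 and the recounts by position were added after their values were seen. The members and lists were chosen with earlier results of these data known. The input libraries were not analysed here.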

Additional observations from a re-analysis of the deposited data

How the results depend on the processing

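No paired analysis was possible because each genotype and target has 1 library, and for the same reason no replicate could be left out. Of 50 values called for the 7 genes, 7 kept their call under all 8 alternatives that recompute a call: H3K27ac, E2A and EBF1 at Tcf3, H3K36me3 and TEAD1 at Tcf4, and E2A and MED1 at Id2. None of the 8 bears on the E2A antibody number, which differs between genotypes. Inferred E2A tags also differed, with 34.7 M in IKDN and 17.0 M in WT cells. The part of either in the E2A calls was not tested. Against 8 chromatin values called higher, 2 were called at a threshold of 2 times. Against 16 called lower, 8 were called over the gene and 10 kb flanks, 7 at 2 times and 6 by number of peaks. Against 19 factor values called higher, 10 were called with the better-scored 50% of each list, 6 with equal peak numbers from whole lists or from the chromosomes complete in both, 12 at 2 times and 11 without the targets whose antibody numbers are in doubt, an alternative chosen after seeing the data, as was that by complete chromosomes. Equal totals of whole lists do not test E2A, whose WT list (16048 peaks) lacks chromosomes that the IKDN list (15392) has; on the complete chromosomes Tcf3 E2A was -4 and Id2 E2A -2, both still called. Against 7 called lower, 4 were called over the gene and flanks and 3 without those targets. The fall without those targets follows from fewer targets; the other causes were not tested. Sharing of chromatin peaks was 32.2% in IKDN and 35.9% in WT cells with overlap of 50% of both peaks, and 50.3% and 56.8% with centres within 1000 bp. Sharing of factor peaks was 57.1% in WT cells with 50% overlap, 52.5% in IKDN and 76.9% in WT cells by centres, and 54.4% in IKDN cells with the better 50%. Directions turned as follows, as IKDN minus WT: over the gene and flanks, Id2 H3K27ac to 931 bp, Tcf3 RNAPII to -3180 bp and Tcf3 ETS1 to -1 peak; by number of peaks, Tcf3 H3K4me1, Tcf3 H3K4me2 and Id2 H3K4me3 to 1 peak more each and Tcf12 RNAPII to 7 more; with equal peak numbers of either kind, Tcf4 MED1 and Tcf12 MED1 to -1 and Tcf12 TEAD1 to -3; by summed score, Tcf3 RNAPII to -8.74, Id2 PAX5 to 33.2 and Id3 PAX5 to 52.5; with the better 50%, Id3 PAX5 to 2 peaks more. Scores assume equal scales in both lists.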
